A study of Mus musculus with 8 samples.

Results

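The genes described here encode the enzymes that write and erase methyl and acetyl groups on histones, together with the PRDM family of zinc-finger proteins. They were picked by symbol, with earlier results of these data already known. The rows taken from the deposited table have symbols of the Kdm, Setd, Setdb, Hdac, Suv39h, Suv420h, Kmt, Kat or Prdm families, with Sirt1 to Sirt7, Ezh1, Ezh2, Ehmt1 and Ehmt2, without Kdm5c, Kdm5d and Kdm6a. This gave 73 of the 17613 genes in the table, with 72 distinct symbols, since Hdac4 has 2 rows. All 73 passed the filter on low counts, as did 15902 genes in all. They lie on 20 chromosomes, 3 of them on the X chromosome.

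Polyadenylated RNA from the brains of C57BL/6 mice was sequenced with a stranded mRNA kit in 4 libraries labelled Uhrf2 knockout (KO) and 4 labelled wild type (WT), to compare gene expression across the genome between these genotypes. The labels do not describe the allele, the age, or whether each library came from a separate animal, so p-values measure the spread between these libraries, which may be technical. Library totals ran from 11891350 to 19773921 counts. Levels are given as CPM, the counts relative to library size, with sizes adjusted by the trimmed mean of M-values (TMM). In whole brain, fewer cells of a type and less RNA per cell cannot be told apart.

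Histone methyltransferases place methyl groups on lysines of histone tails, where they mark active genes (H3K4, H3K36) or silent chromatin (H3K9, H3K27, H4K20), and demethylases remove them. Acetyltransferases open chromatin by acetylating lysines, and histone deacetylases (HDACs) and sirtuins reverse this. Mutations in several of these genes cause human intellectual disability syndromes, and Uhrf2, the gene named in the knockout labels, encodes a ubiquitin ligase that reads modified cytosine in DNA and methylated H3K9.

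Uhrf2 itself goes against the labels. Its level was 86.4, 88.6, 88.4 and 91.8 CPM in the libraries labelled KO, against 58.0, 47.7, 57.2 and 58.9 CPM in those labelled WT. Every library labelled KO was above every library labelled WT, and the means were 88.8 ± 2.23 CPM in those labelled KO and 55.4 ± 5.22 CPM in those labelled WT (SD, n = 4 each). Uhrf2 had a log2 fold change of 0.68 (SE 0.06; adjusted p = 5.45e-06). Adjusted p-values here and below are from the quasi-likelihood test of edgeR, corrected by Benjamini-Hochberg over all tested genes. A two-sided exact permutation test over the 70 splits gave p = 0.0286, the smallest it can give, which follows from the groups not overlapping. Counts per gene do not separate reads from inside and outside a deleted part, so this measures the gene's reads and not the allele. Every direction below compares libraries labelled KO with libraries labelled WT, and rests on those labels.

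The brain origin was checked with defining markers. All 6 neuronal, 6 astrocyte and 6 oligodendrocyte markers looked for were in the table, with 0 of them past the threshold. Summed neuronal markers were at 6468 to 7031 CPM in the libraries labelled KO and 6299 to 6744 CPM in those labelled WT.

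Prdm8 fell in the libraries labelled KO, and it was the only one of the 73 genes past an adjusted p of 0.05. That is 1.37% of these genes, against a background of 1.43% of all tested genes (228 of 15902), or 0.289% for genes that fell. The other 72 did not pass, and 56 of the 73 had a fitted change under 1.1-fold in either direction. For 51 of the 73 the 95% interval of the fold change lay within 1.2-fold either way, so larger changes lay outside the intervals of most of these genes. The median log2 fold change was -0.050, with values from -0.34 to 0.20, beside -0.0049 over all tested genes. The median size of the log2 fold change was 0.071 both in these genes and over all tested genes.

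The promoters of Prdm8, the gene past the threshold, and Kmt2c, the gene with the next lowest p, are shown because Uhrf2 protein binds modified cytosine at CG dinucleotides. The 250 bases before each RefSeq start (GRCm38.p6) follow, 5′ to 3′ on the gene's strand, with every CG in capitals. The Prdm8 window is chr5:98180619-98180868 on the plus strand, and the Kmt2c window is chr5:25498784-25499033 on the minus strand. The Prdm8 window lies inside that gene's GENCODE M21 span (chr5:98167198-98188991), so its RefSeq start is downstream of the M21 start. The Kmt2c window lies directly before the M21 start of Kmt2c, so the windows are not at like positions. Neither overlaps a GENCODE M21 exon of its own gene, and exons of other genes were not checked.
Prdm8: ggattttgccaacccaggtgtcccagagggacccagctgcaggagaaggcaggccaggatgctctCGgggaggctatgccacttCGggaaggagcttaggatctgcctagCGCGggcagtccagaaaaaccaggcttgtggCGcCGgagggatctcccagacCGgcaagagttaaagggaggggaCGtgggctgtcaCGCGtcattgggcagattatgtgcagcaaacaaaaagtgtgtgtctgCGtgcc
Kmt2c: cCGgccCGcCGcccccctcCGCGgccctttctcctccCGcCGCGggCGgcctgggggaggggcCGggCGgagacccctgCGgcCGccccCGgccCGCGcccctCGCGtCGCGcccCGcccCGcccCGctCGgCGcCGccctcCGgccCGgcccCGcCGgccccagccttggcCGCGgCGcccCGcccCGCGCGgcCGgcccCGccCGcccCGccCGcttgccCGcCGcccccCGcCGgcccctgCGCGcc
The Prdm8 window holds 11 CG and the Kmt2c window 48. Over the 84 windows of the 58 genes found in the RefSeq table, the median was 17.5 CG, beside 6 over all 32851 promoter windows. The set of all windows was not limited to genes that passed the filter on low counts, so the sets are not alike in expression. At least 10 CG stood in 79.8% of the windows of these genes, against 37.8% of all windows, and at least 1 CG in 95.2%, against 92.1%. The letters CG read the same on both strands, and methylation was not measured in these libraries.

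Prdm8 encodes a PR-domain zinc-finger protein that in mouse acts with Bhlhe22 as a transcriptional repressor in developing cortical neurons. It lies at chr5:98167198-98188991 on the plus strand (GRCm38, GENCODE M21). Its level was 18.1, 16.9, 17.8 and 16.3 CPM in the libraries labelled KO, against 21.8, 20.3, 21.9 and 23.4 CPM in those labelled WT. The highest library labelled KO was below the lowest labelled WT. The means were 17.3 ± 0.83 CPM (labelled KO) and 21.8 ± 1.24 CPM (labelled WT; SD, n = 4 each), which is 1.26-fold lower, with a log2 fold change of -0.34 (SE 0.07; 95% interval -0.49 to -0.19; adjusted p = 0.015). The call was lost without KO replicate 4 (adjusted p = 0.0657), without WT replicate 3 (0.0682) and without WT replicate 4 (0.0564).

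A730035I17Rik, which overlaps Prdm8 on the opposite strand, averaged 2.68 ± 0.29 CPM in the libraries labelled KO and 2.70 ± 0.41 CPM in those labelled WT (SD, n = 4 each; log2 fold change -0.0049, SE 0.16). The sources used here do not say whether the authors' counting used strand, so reads of such a pair may be mixed. Bhlhe22, the partner of Prdm8, looked up after its values were seen, averaged 38.7 ± 1.34 CPM in the libraries labelled KO and 42.9 ± 3.58 CPM in those labelled WT (log2 fold change -0.14, SE 0.06; adjusted p = 0.357). It did not pass the threshold.

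Some marker lists differed between the labels, and their part in the Prdm8 result was not tested. Summed markers of excitatory neurons overlapped, at 3070 to 3362 CPM in the libraries labelled KO and 2963 to 3361 CPM in those labelled WT, with 0 of 6 past the threshold. The largest part of this sum was Camk2a, at means of 2163 CPM (labelled KO) and 2157 CPM (labelled WT). Neurod6, the 1 of the 6 with a negative value, averaged 35.3 CPM (labelled KO) and 41.4 CPM (labelled WT; log2 fold change -0.22, SE 0.12; adjusted p = 0.473). Summed endothelial markers were at 171 to 187 CPM in the libraries labelled KO, against 195 to 210 CPM in those labelled WT, with 1 of 6 (Slco1c1) lower. Summed microglial markers were at 212 to 221 CPM in the libraries labelled KO and 226 to 248 CPM in those labelled WT, with 0 of 6 past the threshold. Summed astrocyte, oligodendrocyte and cerebellar markers overlapped, with 0 past the threshold and negative values in 5 of 6, 5 of 6 and 7 of 8. The cerebellar sums were at 932 to 1214 CPM in the libraries labelled KO and 1080 to 1371 CPM in those labelled WT. Summed stress and handling genes were at 804 to 863 CPM in the libraries labelled KO, against 645 to 685 CPM in those labelled WT, with 2 of 9 higher. Activity-regulated genes were at 809 to 1005 CPM in the libraries labelled KO and 588 to 850 CPM in those labelled WT, with 3 of 14 higher. The log2 fold change was negative in 6 of these 14, such as Npas4 (-0.54, SE 0.30) and Fos (-0.25, SE 0.23), and 0 fell past the threshold. No defining marker of the endothelial, microglial or excitatory list was at 0.

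**Figure D1:**
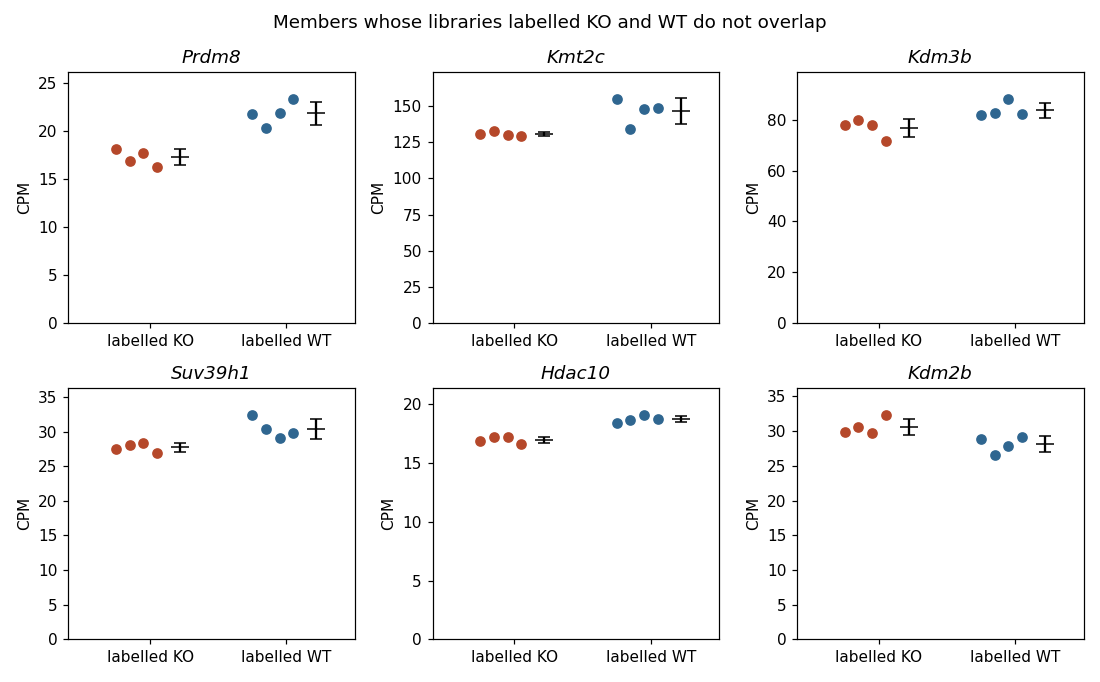
CPM of the 6 genes whose libraries labelled KO (left) and WT (right) do not overlap. Each point is 1 library and the bars are the mean ± SD of 4. Prdm8, Kmt2c, Kdm3b, Suv39h1 and Hdac10 sit lower in all 4 libraries labelled KO, and Kdm2b sits higher.

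Libraries labelled KO and WT did not overlap in 6 of the 73 genes (8.22%), against a background of 7.67% of all tested genes. Kdm2b lay above and Prdm8, Kmt2c, Kdm3b, Suv39h1 and Hdac10 lay below. The backgrounds for each direction were 4.28% above and 3.4% below. At an unadjusted p under 0.05 were 11 of the 73 (15.1%), against 12.6% of all tested genes. Of these, 2 were higher (background 6.45%) and 9 lower (background 6.16%). The share of genes with a negative log2 fold change was 69.9% (51 of 73), against 52% of all tested genes.

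**Figure D2:**
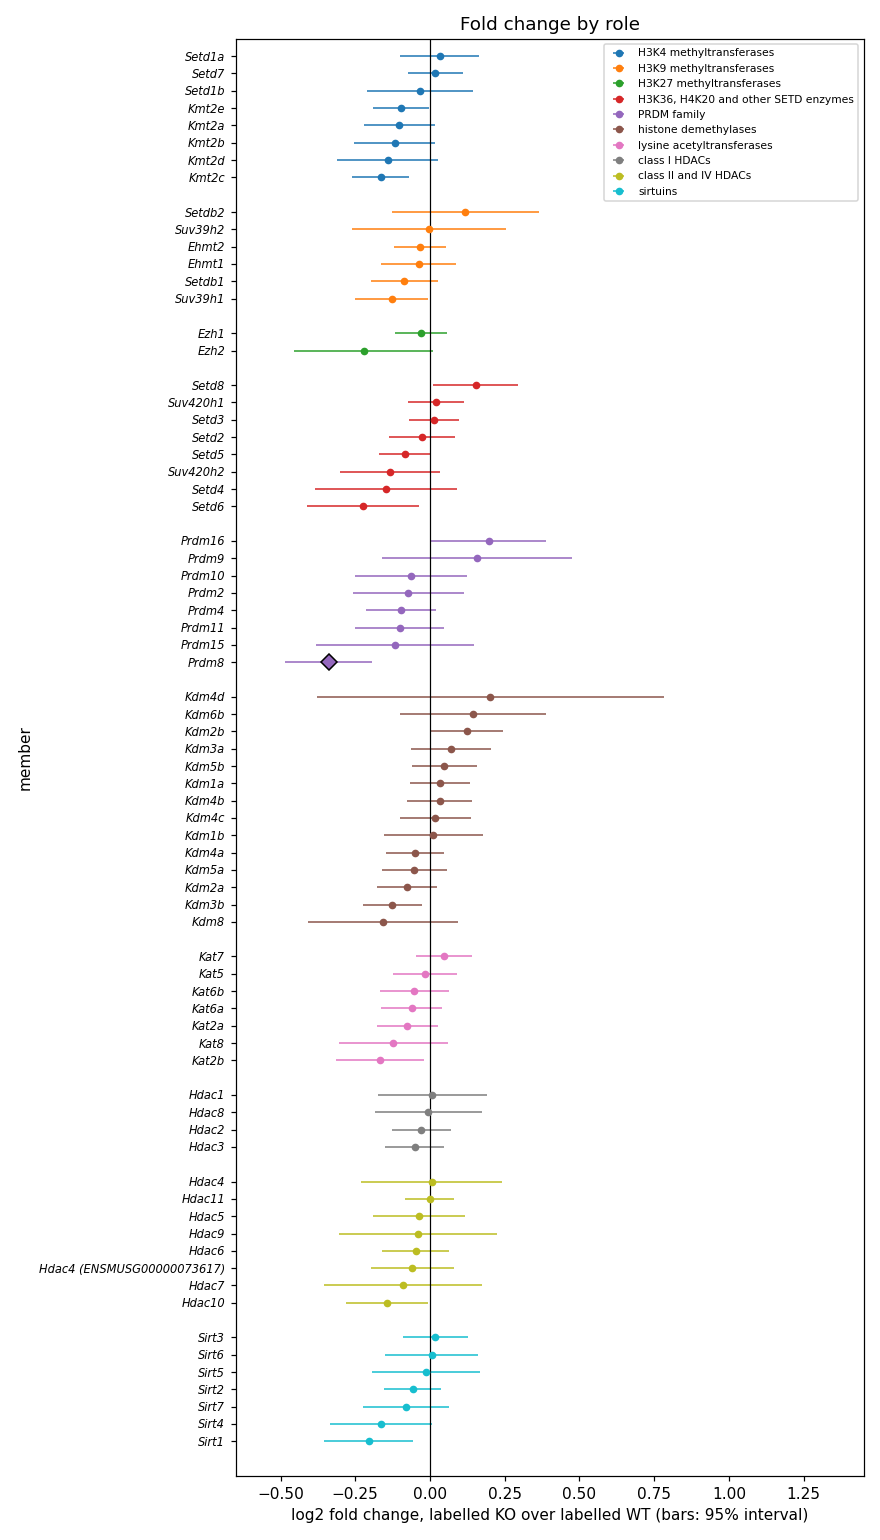
Log2 fold change of 72 of the 73 genes (labelled KO over labelled WT), in blocks by role, with bars for the 95% interval. The diamond marks Prdm8 at -0.34, the only gene past the threshold, and 50 of the 72 points lie left of 0.

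The list of H3K4 methyltransferases, which mark promoters and enhancers of active genes, gave 0 of 8 past the threshold. At an unadjusted p under 0.05 were 2, Kmt2c and Kmt2e. Kmt2e is counted among these 8 by its name. DESeq2 called 1 of them, Kmt2c, and limma-voom 0 (DESeq2 called 1.81% and limma-voom 1.28% of all genes tested). Their median log2 fold change was -0.10, and 6 of 8 values were negative. Kmt2c, which marks enhancers with H3K4 monomethylation, was at 131, 133, 130 and 129 CPM in the libraries labelled KO and 155, 134, 148 and 149 CPM in those labelled WT. The groups did not overlap, but WT replicate 2 lay close to the libraries labelled KO. The means were 131 ± 1.51 CPM (labelled KO) and 147 ± 8.73 CPM (labelled WT; SD, n = 4 each), with a log2 fold change of -0.17 (SE 0.05; adjusted p = 0.0883). The gene passed without WT replicate 2 (adjusted p = 0.0252) and with DESeq2 (0.0481). It shares its locus with 1 gene on its own strand and 3 on the other.

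Kmt2a, Kmt2b, Kmt2c and Kmt2d encode the large H3K4 methyltransferases of the MLL complexes, while Kmt2e shares the name but is not known as an active H3K4 methyltransferase. All 5 Kmt2 genes had negative values, in the reported fit and in all 17 alternatives, where they ran from -0.20 to -0.048. The alternatives refit these same libraries, so a kept sign is not separate support, and this was not counted over all tested genes. The Kmt2 genes were not a planned group of their own. Their median was -0.12, and 0 of them passed in the reported fit. Kmt2d, the close relative of Kmt2c at enhancers, averaged 137 ± 15.1 CPM in the libraries labelled KO and 151 ± 12.3 CPM in those labelled WT (log2 fold change -0.14, SE 0.08; adjusted p = 0.494). Kmt2b, a promoter-bound member, had -0.12 (SE 0.06; adjusted p = 0.472). Kmt2a, needed for Hox gene expression, had -0.10 (SE 0.06; adjusted p = 0.478). In these 3 genes the groups overlapped. Kmt2e, which reads trimethylated H3K4, was at 113, 123, 121 and 126 CPM in the libraries labelled KO and 134, 126, 132 and 125 CPM in those labelled WT (log2 fold change -0.10, SE 0.05; adjusted p = 0.382), and its groups overlapped. The remaining members were near 0, with Setd1a at 0.03 (SE 0.06), Setd1b at -0.03 (SE 0.08) and Setd7 at 0.02 (SE 0.04).

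The H3K9 methyltransferases, which build silent chromatin, gave 0 of 6 past the threshold, with 1 at an unadjusted p under 0.05 and 0 by DESeq2 or limma-voom. Their median log2 fold change was -0.036. Suv39h1, which trimethylates H3K9 in pericentric heterochromatin, was at 27.5, 28.1, 28.4 and 26.9 CPM in the libraries labelled KO and 32.4, 30.4, 29.0 and 29.8 CPM in those labelled WT. The groups did not overlap, with a log2 fold change of -0.13 (SE 0.06; adjusted p = 0.367). Its paralog Suv39h2 had a log2 fold change of -0.0040 (SE 0.12). Setdb1, which silences retroelements, had a log2 fold change of -0.09 (SE 0.05; adjusted p = 0.538). The partners Ehmt1 and Ehmt2, which dimethylate H3K9 in euchromatin, had -0.04 (SE 0.06) and -0.03 (SE 0.04). Setdb2, a relative of Setdb1, was the one member with a positive value, at 0.12 (SE 0.12; adjusted p = 0.747).

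Ezh1 and Ezh2 are the alternative catalytic subunits of Polycomb repressive complex PRC2, which methylates H3K27, with Ezh2 the form of dividing cells. Neither of the 2 passed, and neither was under 0.05 before adjustment, nor was either called by DESeq2 or limma-voom. Ezh2 was at 6.79, 9.43, 7.82 and 7.21 CPM in the libraries labelled KO and 8.75, 8.64, 10.1 and 8.94 CPM in those labelled WT. KO replicate 2 lay inside the range of the libraries labelled WT, and Ezh2 had a log2 fold change of -0.22 (SE 0.11; adjusted p = 0.43). Ezh1 averaged 96.2 ± 2.27 CPM in the libraries labelled KO and 98.3 ± 1.82 CPM in those labelled WT, with a log2 fold change of -0.03 (SE 0.04) and an interval of -0.12 to 0.06. Per kilobase of transcript, Ezh1 stood at 22.9 CPM in the libraries labelled KO and 23.4 in those labelled WT, against 2.80 (labelled KO) and 3.27 (labelled WT) for Ezh2.

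Among the enzymes for H3K36, H4K20 and the other SETD proteins, 0 of 8 passed, with 2 at an unadjusted p under 0.05 and 0 by DESeq2 or limma-voom. Setd6, which methylates the NF-κB subunit RelA, was at 11.3, 10.6, 9.62 and 12.2 CPM in the libraries labelled KO and 13.4, 12.4, 12.9 and 12.2 CPM in those labelled WT. The groups overlapped at their edges, with a log2 fold change of -0.22 (SE 0.09; adjusted p = 0.29). Setd8 (Kmt5a), the H4K20 monomethyltransferase, averaged 42.6 ± 2.82 CPM in the libraries labelled KO and 38.2 ± 3.68 CPM in those labelled WT (log2 fold change 0.15, SE 0.07; adjusted p = 0.359). Suv420h1 (Kmt5b) and Suv420h2 (Kmt5c), which add further methyl groups at H4K20, had 0.02 (SE 0.04) and -0.13 (SE 0.08) on the log2 scale. Setd2, which trimethylates H3K36, had -0.03 (SE 0.05). Setd3, an actin methyltransferase, had 0.01 (SE 0.04), Setd4 had -0.15 (SE 0.11), and Setd5, mutated in a human intellectual disability syndrome, had -0.08 (SE 0.04).

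In the PRDM family, 1 of 9 fell (Prdm8), with 2 at an unadjusted p under 0.05, and 8 did not pass. The median log2 fold change was -0.10. Prdm16, known for brown fat and neural stem cells, was at 18.0, 22.0, 19.3 and 16.7 CPM in the libraries labelled KO and 16.9, 18.6, 16.4 and 14.5 CPM in those labelled WT. The groups overlapped, with a log2 fold change of 0.20 (SE 0.09; adjusted p = 0.381). Among the others, Prdm2, Prdm4, Prdm9, Prdm10, Prdm11 and Prdm15 lay between -0.12 (Prdm15) and 0.16 (Prdm9). Prdm9, which sets meiotic recombination sites in germ cells, had 0.16 (SE 0.15; adjusted p = 0.735).

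The demethylases were the one role group with more positive than negative values, 9 of 14, and a median log2 fold change of 0.03. Of the positive ones, Kdm4d, Kdm1a, Kdm4b, Kdm4c and Kdm1b changed sign in some of the alternative fits. Of the 14, 0 passed, 1 was at an unadjusted p under 0.05, and DESeq2 and limma-voom called 0. Kdm3b, an H3K9 demethylase, was at 77.9, 79.8, 78.0 and 71.7 CPM in the libraries labelled KO and 81.8, 82.8, 88.3 and 82.3 CPM in those labelled WT. The groups did not overlap (log2 fold change -0.13, SE 0.05; adjusted p = 0.253). Kdm2b, which brings Polycomb complexes to CpG islands, was at 29.8, 30.6, 29.8 and 32.3 CPM in the libraries labelled KO and 28.9, 26.6, 27.9 and 29.2 CPM in those labelled WT. It was the one gene of the 73 with all libraries labelled KO above those labelled WT (log2 fold change 0.12, SE 0.06; adjusted p = 0.403).

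The H3K27 demethylase Kdm6b averaged 44.5 ± 6.10 CPM in the libraries labelled KO and 40.1 ± 5.23 CPM in those labelled WT (log2 fold change 0.14, SE 0.11). Kdm1a, which removes H3K4 methylation in corepressor complexes, had 0.03 (SE 0.05), and its relative Kdm1b had 0.01 (SE 0.08). Kdm4d, with the fewest counts of the 73 genes at 14 to 38 per library, had the widest interval of a log2 fold change, 0.20 (-0.38 to 0.78). The remaining demethylases were Kdm2a, Kdm3a, Kdm4a, Kdm4b, Kdm4c, Kdm5a, Kdm5b and Kdm8, between -0.16 (Kdm8) and 0.07 (Kdm3a).

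Among the lysine acetyltransferases, 0 of 7 passed, with 1 at an unadjusted p under 0.05 and 0 by DESeq2 or limma-voom. Kat2b and Kat2a are alternative catalytic subunits of the SAGA-type coactivator complexes. Kat2b ranged from 45.1 to 52.5 CPM in the libraries labelled KO and from 49.5 to 63.9 CPM in those labelled WT. WT replicate 2 lay inside the range of the libraries labelled KO, and Kat2b had a log2 fold change of -0.17 (SE 0.07; adjusted p = 0.324). Kat2a averaged 72.9 ± 3.91 CPM in the libraries labelled KO and 76.7 ± 2.77 CPM in those labelled WT (log2 fold change -0.08, SE 0.05; adjusted p = 0.57). Kat5, Kat6a, Kat6b, Kat7 and Kat8 had values between -0.12 (Kat8, the H4K16 acetyltransferase) and 0.05 (Kat7).

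Of the class I HDACs, which include subunits of nuclear corepressor complexes, 0 of 4 passed, 0 were at an unadjusted p under 0.05, and DESeq2 and limma-voom called 0. Hdac3 averaged 97.2 ± 4.72 CPM in the libraries labelled KO and 100.6 ± 3.71 CPM in those labelled WT (log2 fold change -0.05, SE 0.05; interval -0.15 to 0.05). Hdac2, abundant in neurons, averaged 82.6 ± 3.13 CPM in the libraries labelled KO and 84.4 ± 3.73 CPM in those labelled WT (log2 fold change -0.03, SE 0.05). Hdac1 and Hdac8 had 0.0071 (SE 0.09) and -0.0056 (SE 0.08).

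Class II and IV HDACs gave 0 of 8 rows past the threshold, with 1 at an unadjusted p under 0.05 and 0 by DESeq2 or limma-voom. Hdac10, a polyamine deacetylase, was at 16.9, 17.2, 17.2 and 16.6 CPM in the libraries labelled KO and 18.4, 18.7, 19.1 and 18.7 CPM in those labelled WT. The groups did not overlap and the SD was 0.27 CPM in each, while the log2 fold change of -0.14 (SE 0.07) had an adjusted p of 0.37. Hdac6, the tubulin deacetylase, averaged 58.4 ± 4.18 CPM in the libraries labelled KO and 60.3 ± 1.06 CPM in those labelled WT (log2 fold change -0.05, SE 0.05). Hdac11, the class IV enzyme, had -0.00088 (SE 0.04), with an interval of -0.08 to 0.08. Hdac5, Hdac7 and Hdac9 had -0.04 (SE 0.07), -0.09 (SE 0.12) and -0.04 (SE 0.12). Hdac4 stands in the table under ENSMUSG00000026313 and ENSMUSG00000073617, and the deposited locus of the second lies inside the GENCODE M21 span of the first. Their log2 fold changes, 0.0060 (SE 0.11) and -0.06 (SE 0.07), are uncertain, because reads could be split between them.

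Of the 7 sirtuins, NAD-dependent deacylases, 0 passed, with 1 at an unadjusted p under 0.05 and 0 by DESeq2 or limma-voom. Sirt1, a nuclear deacetylase of histones and transcription factors, was at 19.4, 24.3, 22.4 and 21.4 CPM in the libraries labelled KO and 26.4, 24.2, 24.9 and 25.7 CPM in those labelled WT. KO replicate 2 and WT replicate 2 met at 24.3 and 24.2 CPM, and Sirt1 had a log2 fold change of -0.21 (SE 0.07; adjusted p = 0.2). Sirt4, a mitochondrial member, averaged 17.2 ± 1.95 CPM in the libraries labelled KO and 19.2 ± 0.83 CPM in those labelled WT (log2 fold change -0.16, SE 0.08; adjusted p = 0.42). Sirt2, abundant in myelin, had -0.06 (SE 0.05). Sirt3, Sirt5, Sirt6 and Sirt7 lay between -0.08 (Sirt7) and 0.02 (Sirt3).

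**Figure D3:**
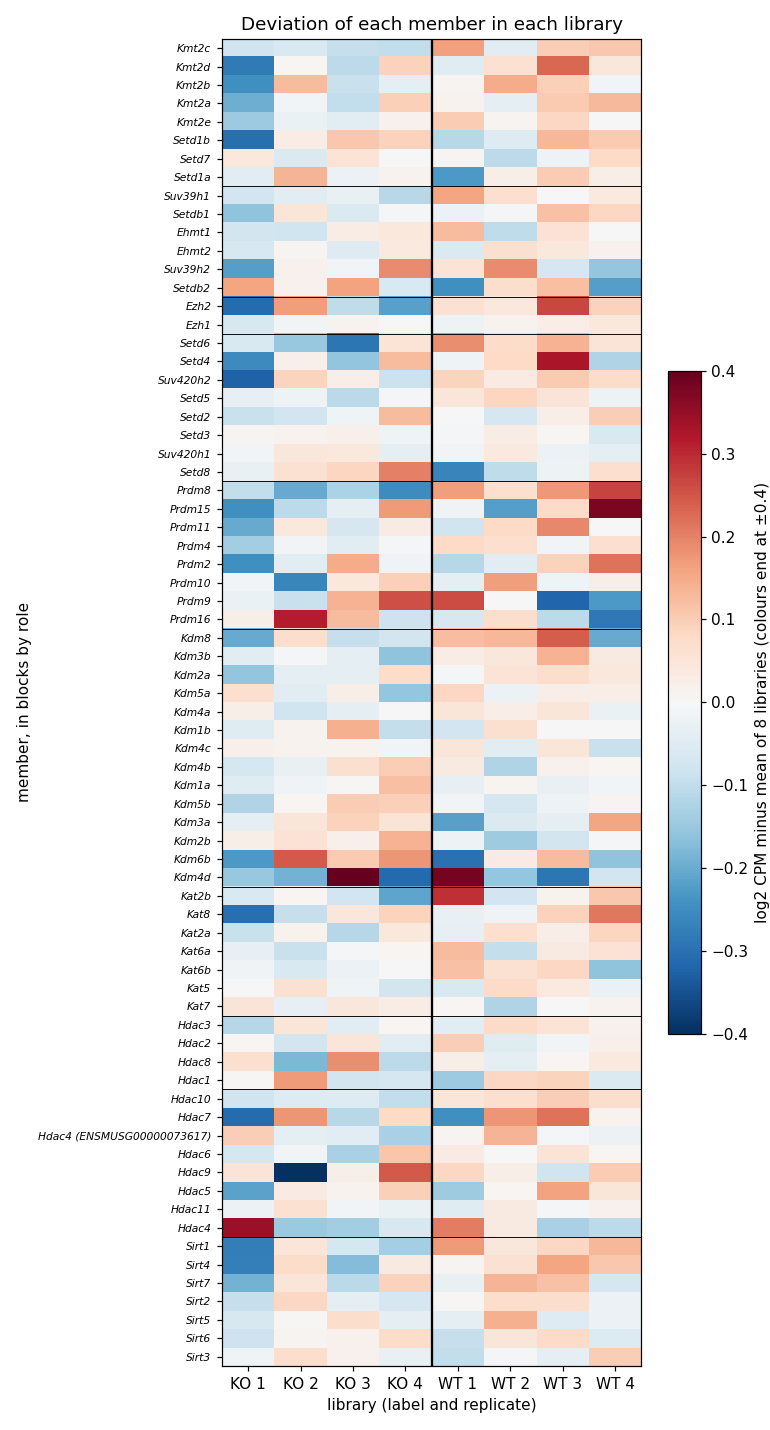
Deviation of 72 of the 73 genes in each library from its mean over 8 libraries (log2 CPM), libraries labelled KO left of those labelled WT, in blocks by role. KO replicate 1 is the lowest of its group in 36 of them, which shows as a column of blue. This was not counted over all tested genes.

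Library to library, the median SD of these genes was 6.56% of the mean in the libraries labelled KO and 5.11% in those labelled WT. KO replicate 1 was the lowest of the 4 libraries labelled KO in 36 of the 73 genes, and its median deviation was -0.072 on the log2 scale. WT replicate 1 was the lowest of its group in 29 genes. These counts and the deviation were not computed over all tested genes, so they have no background. Without KO replicate 1, 47 of the 73 values were negative and the median was -0.035. Without both libraries numbered 1, 51 were negative, the median was -0.043, and Prdm8 was again the gene past the threshold, at 1.02% of all tested genes. The sign was the same in all 17 alternatives for 49 genes, 39 negative and 10 positive. The same count was not made over all tested genes, so it has no background. The alternatives reuse the same libraries and are not separate support.

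**Figure D4:**
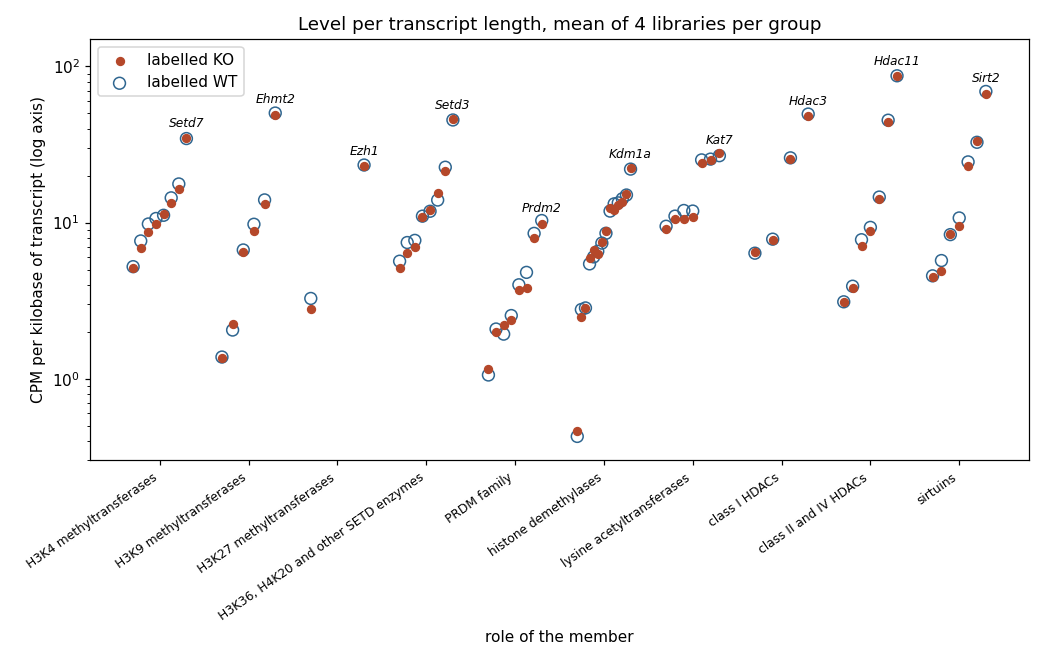
Mean level per kilobase of transcript (CPM per kb, log axis) of 71 rows with a GENCODE M21 length, in blocks by role, libraries labelled KO as filled and those labelled WT as open points. Hdac11 stands highest, at 87.0 in each group, and the filled and open points of a gene lie close together at every level.

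Per kilobase of transcript, the levels of the 72 rows with a length spread over a wide range around a median of 9.31 CPM per kb. Hdac11 was highest, at 87.0 CPM per kb in the libraries labelled KO and 87.0 in those labelled WT. Next came Sirt2 (66.4 in KO, 69.1 in WT, by label), Ehmt2 (49.1 in KO, 50.3 in WT), Hdac3 (47.8 in KO, 49.5 in WT) and Setd3 (45.8 in KO, 45.4 in WT), each highest in its role group. The highest of the other groups, Ezh1 aside, were Setd7 (34.9 in KO, 34.5 in WT), Kat7 (27.7 in KO, 26.8 in WT), Kdm1a (22.5 in KO, 22.0 in WT) and Prdm2 (9.79 in KO, 10.3 in WT). Kdm4d was lowest, at 0.464 CPM per kb in the libraries labelled KO and 0.427 in those labelled WT. As a group the genes have longer transcripts than all tested genes (median 4.38 against 3.03 kb), a like GC content (50.8% against 50.2%) and a higher median level (45.7 against 24.3 CPM, per gene and not per length).

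The other genes of these pathways were read from 8 lists of further enzymes and complex subunits, 144 distinct genes tested. Of these, 1 rose (Prmt8), 0 fell and 143 did not pass, against backgrounds of 1.43% in either direction and 1.14% higher. Prmt8, an arginine methyltransferase of neuronal membranes, was at 80.9, 73.9, 79.2 and 76.5 CPM in the libraries labelled KO and 70.7, 65.3, 63.8 and 69.7 CPM in those labelled WT. The groups did not overlap, and the means were 77.6 ± 3.07 CPM (labelled KO) and 67.4 ± 3.34 CPM (labelled WT; SD, n = 4 each; log2 fold change 0.21, SE 0.05; adjusted p = 0.0413). The call was lost with limma-voom (adjusted p = 0.0526), without both libraries numbered 1 (0.0629) and without KO replicate 1 (0.104), KO replicate 3 (0.152), KO replicate 4 (0.0896), WT replicate 2 (0.116), WT replicate 3 (0.18) or WT replicate 4 (0.0533). It was also lost with GC content and length trends removed, an alternative chosen after seeing the data (0.0665).

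In the lists of subunits the medians lay near 0 and 0 genes passed in edgeR. DESeq2, which called 1.81% of all genes, called 1 gene of the PRC2 list and 1 of the HDAC complex list. The 9 subunits and partners of PRC2 had a median log2 fold change of 0.0053, and the lowest p belonged to the histone chaperone Rbbp7 (0.15, SE 0.04; adjusted p = 0.0903). The 32 subunits of HDAC complexes had a median of -0.0012. The 13 subunits of the COMPASS and MLL complexes, which carry Kmt2a to Kmt2d, had a median of 0.0037, with Men1 at 0.11 (SE 0.06; adjusted p = 0.465). The 34 subunits of acetyltransferase complexes had a median of -0.02, with Ing4 at -0.14 (SE 0.05; adjusted p = 0.262), and the 11 H3K9 methylation partners one of 0.0044, with Wiz, a partner of Ehmt2, at -0.15 (SE 0.06; adjusted p = 0.267). At an unadjusted p under 0.05 were 3 of 9, 5 of 32, 0 of 13, 3 of 34 and 1 of 11 genes, in the order given. The background was 12.6% of all tested genes.

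Among further enzymes outside the 73, the lists of 20 methyltransferases, 12 demethylases and 15 acetyltransferases had median log2 fold changes of 0.02, -0.03 and -0.02. Apart from Prmt8, the lowest p in each belonged to Hif1an, an asparagine hydroxylase, at -0.12 (SE 0.05; adjusted p = 0.274), and to Naa50, an N-terminal acetyltransferase, at 0.14 (SE 0.05; adjusted p = 0.218). Over all 144 genes, 16 were at an unadjusted p under 0.05 (background 12.6%), DESeq2 called 3 and limma-voom 0.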

How the data were processed

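RNA of 8 brain libraries was measured. The deposited values are expected counts per gene, not scaled between libraries, and 91.5% of them were whole within 0.001. TopHat2 2.0.9, GRCm38 (mm10) and edgeR are listed, per the submitters' processing notes. Which program counted reads, and whether by strand, is not given in the sources used here, and 45 of the 73 genes overlap another gene (39 on the opposite strand, 16 on the same strand).

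Counts were rounded, filtered by filterByExpr (15902 genes) and scaled by TMM, and tested with edgeR 4.0.16 (R 4.3.3), robust quasi-likelihood, group as the only term, Benjamini-Hochberg adjustment over all tested genes, threshold 0.05. SEs come from the F statistic. A count of 3 equals 0.150 to 0.252 CPM, and 66 of the 73 genes had at least 100 counts in every library. Replicates were separate libraries by their counts (chi-square per degree of freedom 2.43 to 4.92 between replicates).

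Positions, lengths and overlaps are from GENCODE M21, promoters from RefSeq. Members and lists were chosen with earlier results of these data known. Named with values were Uhrf2, genes past the threshold or without overlap, the 2 lowest p and the highest level per kilobase in each of the 10 role groups, and the lowest p of each partner list; other members complete their groups. Some genes counted in the totals are not reported here by name or in the figures. Alternatives used other scalings and filters, DESeq2 1.42.0, limma-voom (limma 3.58.1), a replicate block and left-out libraries. Removal of GC content and length trends was added after seeing the data.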

Additional observations from a re-analysis of the deposited data

Results flagged for a closer look

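In 7 of 148 groups of 4 libraries, 1 library lay far from the other 3 by Dixon's criterion, and chance flags about 1 in 20 groups, or 7.4 here. For Uhrf2, WT replicate 2 was lowest at 47.7 CPM, with the others at 57.2 to 58.9 CPM. Hdac4 (ENSMUSG00000026313) was highest in KO replicate 1 at 31.8 CPM, with the others at 22.6 to 24.0 CPM. Hdac11 was highest in KO replicate 2 at 241 CPM, against 227 to 229 CPM in the others. Kdm4d was highest in KO replicate 3 at 2.01 CPM, against 0.935 to 1.04 CPM. Kdm3b was highest in WT replicate 3 at 88.3 CPM, against 81.8 to 82.8 CPM. In WT replicate 2, Kat7 was lowest at 89.2 CPM (others 97.0 to 98.0 CPM) and Sirt5 was highest at 12.1 CPM (others 10.6 to 10.8 CPM).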

How the results depend on the processing

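Other scalings and filters moved no count of calls by over 1.5 times. Leaving out 1 library gave 110 to 324 calls over all genes (0.689% to 2.03% of those tested), 0 to 2 among the 73, 0 to 1 in the partner lists, and 6 to 13 of the 73 without overlap. Smaller groups overlap less in all genes: without KO replicate 2 it was 13 of the 73 (17.8%; 14% of all tested genes), without KO replicate 4 it was 12 (16.4%; 11.1%), without WT replicate 4 it was 12 (16.4%; 11.6%) and without WT replicate 2 it was 10 (13.7%; 11.6%). In the other fits the share was below that of all tested genes. It was 7 without KO replicate 1 (9.59%; 11.1%) and 6 without KO replicate 3 (8.22%; 10.5%). It was 6 without WT replicate 1 (8.22%; 11.3%) and 7 without WT replicate 3 (9.59%; 10.2%). Without both libraries numbered 1 it was 7 (9.59%; 15.4%). DESeq2 called 2 of the 73 (Prdm8, Kmt2c) and 3 partner genes, with 1.81% of all genes called. Partner genes called were 0 with limma-voom (1.28% of all genes), 0 without both libraries numbered 1 (1.02%) and 2 with GC content and length trends removed, chosen after seeing the data (1.91%). Some values near 0 changed sign. Hdac2 gave 0.0024 with the GC content and length trends removed. Leaving out 1 library, log2 fold changes ran from -0.049 to 0.0022 for Hdac2, -0.022 to 0.012 for Hdac11, -0.0020 to 0.054 for Kdm1a, -0.014 to 0.046 for Setd7 and -0.0040 to 0.026 for Setd3. Uhrf2 stayed at 0.61 to 0.71. The cause was not tested. Depth limits the rarest genes most, such as Kdm4d with 14 to 38 counts per library.

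With the replicate number as a block, edgeR called 495 genes (3.11%), 2 of the 73 (Prdm8, and Kmt2c at adjusted p = 0.0332) and 3 partner genes. The labels give the numbers no meaning. Same-numbered libraries deviated together with correlations of 0.208, 0.0772, 0.0245 and 0.0673, not every library correlated best with its own number, and the samples are treated as sharing only a number.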
